A study of Mus musculus with 12 samples.

Results

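The subject is a set of 7 genes of ketone body synthesis, ketone body use and monocarboxylate transport, out of 46983 genes in the count files. The 7 were taken by name, with earlier results of these data known: Acat1, Bdh1, Bdh2, Oxct1, Slc16a1, Slc16a6 and Slc16a7. Each was matched to 1 Ensembl gene, and each passed the filter on low counts, as did 15664 genes in all. Primary hepatocytes of mice gave 12 RNA libraries, 3 in each of 4 groups. They were the AEG-1-L24K/L25H knock-in given CP775146, the knock-in untreated, AEG-1-WT (wild type) given CP775146, and wild type untreated. In the knock-in, 2 residues of AEG-1, the product of Mtdh, are changed, an edit made by CRISPR/Cas9 in the whole animal on a C57BL/6/J background. Both genotypes were littermates of heterozygous crosses, and regular chow was the stated diet. CP775146, which activates PPAR-alpha, a nuclear receptor for fatty acids, was given at 2.5 µM for 24 h. The labels give neither the age nor the sex of the mice and name no vehicle in the untreated cultures, so effects of the agonist and of a vehicle cannot be told apart. Whether replicate libraries are separate mice or cultures is not stated, and the p-values then cover only the spread between these libraries, which may be technical. Genotype and the cell preparations of each genotype cannot be told apart.

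In fasting, the liver turns acetyl-CoA from fatty acid oxidation into acetoacetate and beta-hydroxybutyrate and sends both to other organs. Acetoacetyl-CoA thiolase (Acat1) forms the first intermediate, and Bdh1 reduces acetoacetate to beta-hydroxybutyrate. Proton-linked monocarboxylate transporters of the Slc16 family carry ketone bodies, lactate and pyruvate across the plasma membrane. Other organs take ketone bodies up and activate acetoacetate with the CoA transferase encoded by Oxct1, a step that hepatocytes are known to lack almost entirely.

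Library totals ran from 26956032 to 34885451 counts. Levels are in CPM, counts brought to a common library size with TMM scaling (trimmed means of ratios), and are compared between genes only as RPKM, CPM per kilobase of exonic length. At these depths 3 counts, the limit that a count of 0 allows, equal 0.086 to 0.1113 CPM before TMM scaling, a figure for counting error alone. Mtdh stood at 193 ± 3.72 CPM in treated and 173 ± 1.98 CPM in untreated knock-in, and at 181 ± 4.32 CPM in treated and 166 ± 8.47 CPM in untreated wild type (SD, n = 3 each). Counts per gene do not show the amino acid changes and so do not check the genotype labels. The 9 hepatocyte markers found in the files summed to 79985 to 91261 CPM in knock-in and 120016 to 127790 CPM in wild-type libraries. Albumin made up most of these sums. Without treatment 4 of the 9 were lower and 1 higher in the knock-in, where 18.6% of all tested genes were lower and 18.4% higher. With treatment 6 were lower and 2 higher, where 22% of all were lower and 20.5% higher. Lymphocyte and neutrophil markers summed to at most 0.511 CPM in any library.

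Promoter windows from RefSeq (GRCm38.p6), running from 250 bases before to 50 after an annotated start, were found for 4 of the 7 genes: Bdh1, Bdh2, Oxct1 and Slc16a1. Those of Slc16a1 and Oxct1 are printed because these genes had opposite responses to the agonist. Both are on the plus strand and read 5′ to 3′, with CpG dinucleotides in capitals. The Slc16a1 window is chr3:104638414-104638713 and the Oxct1 window is chr15:4026178-4026477.
Slc16a1: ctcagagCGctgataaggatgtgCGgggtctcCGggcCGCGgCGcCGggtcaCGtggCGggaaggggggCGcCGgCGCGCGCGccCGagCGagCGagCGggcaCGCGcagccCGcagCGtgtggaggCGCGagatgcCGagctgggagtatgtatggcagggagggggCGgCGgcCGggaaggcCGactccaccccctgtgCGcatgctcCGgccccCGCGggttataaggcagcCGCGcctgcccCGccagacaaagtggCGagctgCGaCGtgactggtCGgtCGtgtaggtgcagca
Oxct1: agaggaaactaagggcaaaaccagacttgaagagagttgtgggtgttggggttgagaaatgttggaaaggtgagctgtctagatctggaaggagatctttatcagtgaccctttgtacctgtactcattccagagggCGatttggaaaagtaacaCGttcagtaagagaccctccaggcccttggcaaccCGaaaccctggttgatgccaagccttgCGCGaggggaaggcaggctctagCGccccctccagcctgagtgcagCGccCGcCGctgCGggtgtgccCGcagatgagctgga
The Slc16a1 window holds 42 CpG dinucleotides and the Oxct1 window 11, beside a median of 7 over 32851 windows of the same length. GC content was 73.7% in the Slc16a1 window and 55.3% in that of Oxct1. On either strand, neither window holds the nuclear receptor half-site AGGTCA, found in 16.3% of all windows, nor do the Bdh1 and Bdh2 windows. The DR1 element, a direct repeat of that half-site with 1 base between the copies, is the form bound by PPAR-alpha with its partner RXR. Its closest match had 4 mismatches in 12 fixed bases in both printed windows, while 24.6% of all windows have a match with at most 3. Of the other windows, 1 of the 2 for Bdh1 has a match with 3 mismatches. The GC box GGGCGG, present in 35.7% of windows, occurs in the Slc16a1 window and in the same Bdh1 window, and the TATA box TATAAA, present in 13.6%, in none of the windows of these 4 genes. A missing match says only that these letters are not in this window.

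CP775146 raised Acat1, Slc16a1 and Slc16a6 and lowered Oxct1 and Slc16a7 in both genotypes. Bdh1 was higher in the knock-in with and without the agonist, and Bdh2 was higher in the untreated knock-in. Calls rest on the quasi-likelihood test of edgeR with Benjamini-Hochberg adjustment over all tested genes, at an adjusted p below 0.05. In knock-in the agonist raised 4 and lowered 3 of the 7 genes, where 37.2% of all tested genes were called (18.1% higher and 19.1% lower). In wild type it raised 3 and lowered 2, where 45% of all tested genes were called (22.7% higher and 22.3% lower). The median change of the 7 was 0.24 log2 in knock-in and 0.2 log2 in wild type, beside −0.01 log2 over all tested genes in each. Without treatment the knock-in was higher for 3 genes and lower for 1, with 37% of all tested genes called (18.4% higher and 18.6% lower). With treatment it was higher for 1 and lower for 2, with 42.5% of all called (20.5% higher and 22% lower). That count became 6 of 7 with scaling by total counts alone, which moved the median of all genes to 0.12 log2 and added Bdh2, Acat1 and Slc16a6 as higher. The difference between agonist effects was called for 1 of 7 genes, Slc16a1, and for 7.11% of all tested genes (2.78% higher and 4.33% lower). Library ranges of treated and untreated groups did not overlap for 7 of 7 genes in knock-in and 5 of 7 in wild type, against 51.9% and 49% of all tested genes. Between genotypes they did not overlap for 4 of 7 genes with treatment and 5 of 7 without it, against 51.2% and 47.4% of all tested genes.

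Acat1 (ENSMUSG00000032047, GRCm38/mm10 chromosome 9, 53580522 to 53610382) encodes the mitochondrial thiolase that joins acetyl-CoA into acetoacetyl-CoA. It had 209, 205 and 219.9 CPM in treated knock-in, against 81.2, 76.7 and 76.1 CPM in untreated knock-in. In treated wild type it had 205, 213 and 223 CPM, against 72.1, 70.8 and 73.5 CPM in untreated wild type. All 6 treated libraries lay above all 6 untreated ones. The rise was 2.71-fold in knock-in (1.44 ± 0.04 log2 ± SE, adjusted p = 2.41e-22) and 2.96-fold in wild type (1.57 ± 0.04 log2, adjusted p = 3.15e-23). The 2 rises differed by −0.13 ± 0.06 log2 (knock-in minus wild type), with an interval from −0.25 to −0.01 and an adjusted p of 0.213. Without treatment Acat1 was 1.08-fold higher in the knock-in (0.11 ± 0.04 log2, adjusted p = 0.0399). That call was lost without untreated knock-in replicate 1 (adjusted p = 0.178), untreated wild-type replicate 1 (0.0693) or untreated wild-type replicate 2 (0.0934).

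Bdh1 (ENSMUSG00000046598, chromosome 16, 31422280 to 31458901) encodes the mitochondrial dehydrogenase that interconverts acetoacetate and beta-hydroxybutyrate. It set the genotypes apart more than the treatments. The knock-in had 11.4, 10.8 and 11.5 CPM with the agonist and 9.05, 10.02 and 9.46 CPM without it. Wild type had 6.31, 6.5 and 6.1 CPM with the agonist and 5.35, 4.96 and 6.12 CPM without it. All 6 knock-in libraries lay above all 6 wild-type libraries. The knock-in was 1.73-fold higher without treatment (0.79 ± 0.09 log2, adjusted p = 2.95e-08) and 1.78-fold higher with it (0.83 ± 0.09 log2, adjusted p = 3.37e-09). The agonist effect was small, at 1.18-fold in knock-in (0.24 ± 0.08 log2, adjusted p = 0.0183) and 1.15-fold in wild type (0.2 ± 0.1 log2, adjusted p = 0.0983). The knock-in call was lost with DESeq2 (adjusted p = 0.0549), with total-count scaling (0.083), and without untreated replicate 1 (0.0881) or 3 (0.0545) or treated replicate 1 (0.0581) or 3 (0.0758). The wild-type difference passed without untreated wild-type replicate 3, at 0.29 log2 (adjusted p = 0.0301). The sum of 8 cholangiocyte markers, mostly Sox9, Spp1 and Krt19, was also higher in the knock-in. It was 49.1 to 53 CPM in treated and 43.5 to 46 CPM in untreated knock-in. In wild type it was 32.9 to 33.9 CPM with and 15.4 to 18.5 CPM without the agonist. Epcam averaged at most 0.373 CPM in any group. Of 6 tested cholangiocyte markers, 4 were higher in the knock-in with treatment and 5 without it, where 20.5% and 18.4% of all tested genes were. The part of these cells in the Bdh1 difference was not tested. An antisense gene, Gm15743, covers 14.03% of the exonic length of Bdh1, and its group means did not exceed 0.087 CPM.

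Bdh2 (ENSMUSG00000028167, chromosome 3, 135281221 to 135304426) encodes a cytosolic short-chain dehydrogenase that also acts on beta-hydroxybutyrate. Its libraries held 42 to 114 counts, the fewest among the 7 genes together with Oxct1. It had 2.35, 2.24 and 2.14 CPM in treated knock-in and 2.78, 3.3 and 3.24 CPM in untreated knock-in. In wild type it had 1.64, 1.8 and 1.78 CPM with the agonist and 1.54, 1.8 and 1.5 CPM without it. The knock-in groups did not overlap each other or either wild-type group, and the wild-type groups overlapped. With treatment the genotypes differed by 0.36 ± 0.16 log2, which was not called (adjusted p = 0.0636). Without treatment the knock-in was 1.92-fold higher (0.94 ± 0.15 log2, adjusted p = 9.9e-06), and the agonist lowered Bdh2 1.39-fold in knock-in (−0.47 ± 0.14 log2, adjusted p = 0.00772). These comparisons share the untreated knock-in libraries. In wild type the change was 0.11 ± 0.17 log2 (adjusted p = 0.636). The difference between the agonist effects, −0.58 ± 0.22 log2, had an unadjusted p of 0.0133 and an adjusted p of 0.116, so the effects are not shown to differ.

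Oxct1 (ENSMUSG00000022186, chromosome 15, 4026383 to 4155344), a gene of ketone body use, fell with the agonist in both genotypes. It had 1.75, 2.09 and 2.2 CPM in treated knock-in, against 5.49, 5.71 and 5.88 CPM in untreated knock-in. In wild type it had 2.23, 2.72 and 2.12 CPM with the agonist, against 5.02, 5.75 and 5.19 CPM without it. Every treated library lay below every untreated library, and the genotypes overlapped within each treatment. The fall was 2.82-fold in knock-in (−1.5 ± 0.13 log2, adjusted p = 4.38e-11) and 2.25-fold in wild type (−1.17 ± 0.13 log2, adjusted p = 1.1e-08). The difference between these falls was −0.33 ± 0.18 log2 (adjusted p = 0.33). Between genotypes the difference was 0.1 ± 0.11 log2 without treatment, with an interval from −0.13 to 0.33. A transcript on the other strand, BC037032, covers 12.62% of its exonic length and had at most 0.00938 CPM in any group mean.

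Because hepatocytes are known to hold little Oxct1, markers of other liver cells are given beside it. The 11 macrophage markers, of which Cd68 made up most, summed to 112 to 126 CPM in treated and 159 to 168 CPM in untreated knock-in. In wild type the sums were 188 to 193 CPM with and 217 to 257 CPM without the agonist. Of the 10 that were tested, 5 were lower with the agonist in knock-in and 4 in wild type, and none was higher, where 19.1% and 22.3% of all tested genes were lower. In untreated knock-in 3 of these 10 were higher and 1 lower than in wild type, where 18.4% and 18.6% of all tested genes were. In treated knock-in 4 were higher and 1 lower than in treated wild type, where 20.5% and 22% of all were. The defining macrophage gene Adgre1 averaged at most 0.386 CPM in any group. The 10 endothelial markers summed to 46.2 to 51.8 CPM in treated and 65.9 to 73.6 CPM in untreated knock-in, and to 106 to 116 CPM in treated and 147 to 167 CPM in untreated wild type. Stab2 and Flt1 made up most of these sums, and of 9 tested endothelial markers 2 were lower with the agonist in knock-in and 3 in wild type. The 10 stellate cell markers summed to 67.7 to 76.9 CPM in treated and 108 to 121 CPM in untreated knock-in, and to 159 to 196 CPM in treated and 187 to 219 CPM in untreated wild type, where the ranges overlapped. Reln made up nearly all of these sums, and of 8 tested stellate markers 2 were lower with the agonist in knock-in and 0 in wild type by edgeR. The part of these cells in the fall of Oxct1 was not tested. In bulk RNA, fewer cells of a type and less RNA per cell cannot be told apart.

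Slc16a1 (ENSMUSG00000032902, chromosome 3, 104638668 to 104658462) encodes MCT1, the widespread carrier of lactate, pyruvate and ketone bodies. It had 260.4, 263 and 262 CPM in treated knock-in, against 126, 126 and 125 CPM in untreated knock-in. In wild type it had 306, 316 and 332 CPM with the agonist, against 131, 132 and 126 CPM without it. The 4 groups did not overlap, although the untreated genotypes lay close to each other. The rise was 2.08-fold in knock-in (1.06 ± 0.04 log2, adjusted p = 4.54e-20) and 2.45-fold in wild type (1.29 ± 0.04 log2, adjusted p = 2.32e-22). Slc16a1 alone among the 7 genes had agonist effects that differed between genotypes by a called test, by −0.23 ± 0.05 log2 (knock-in minus wild type, adjusted p = 0.00449). With treatment the knock-in was 1.21-fold lower (−0.28 ± 0.04 log2, adjusted p = 2.02e-07), and without it the difference was −0.05 ± 0.04 log2 (adjusted p = 0.359), a value that changed sign to 0.0548 log2 with total-count scaling.

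Slc16a6 (ENSMUSG00000041920, chromosome 11, 109450855 to 109473598) encodes MCT7, which in zebrafish is required for release of beta-hydroxybutyrate from hepatocytes. It had 37.4, 38.7 and 37.4 CPM in treated knock-in, against 26.1, 26.9 and 24.7 CPM in untreated knock-in. In wild type it had 35.9, 39.3 and 36.0 CPM with the agonist, against 26.7, 27.7 and 25.5 CPM without it. All treated libraries lay above all untreated ones, and the genotypes overlapped. The rise was 1.46-fold in knock-in (0.55 ± 0.05 log2, adjusted p = 7.52e-10) and 1.39-fold in wild type (0.48 ± 0.05 log2, adjusted p = 1.62e-08), a difference of 0.07 ± 0.08 log2 (adjusted p = 0.665). Amz2, on the opposite strand, shares 21.54% of the exonic length of Slc16a6, and reads there cannot be told apart without strand. By default the counting program leaves out a read that meets exons of both genes, and no overlap option was set. Such reads would be missing from the counts of Slc16a6. Amz2 was not called for the agonist in either genotype, at 0.1 ± 0.05 log2 in each. Arsg, also on the opposite strand, shares 0.98%, and was called only in wild type, at 0.22 ± 0.05 log2 (adjusted p = 0.00111). The miRNA gene Gm25540, on the same strand, shares 1% of the exonic length of Slc16a6 and is listed at 0 in all 12 libraries.

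Slc16a7 (ENSMUSG00000020102, chromosome 10, 125226464 to 125328963) encodes MCT2, a carrier with high affinity for its substrates. It had 43.9, 43.6 and 41.5 CPM in treated knock-in, against 67.4, 71.4 and 67.7 CPM in untreated knock-in. In wild type it had 52.6, 54.97 and 57.3 CPM with the agonist, against 82.5, 76.2 and 86.8 CPM without it. None of the 4 groups overlapped. The agonist lowered it 1.6-fold in knock-in (−0.68 ± 0.05 log2, adjusted p = 1.54e-12) and 1.49-fold in wild type (−0.58 ± 0.05 log2, adjusted p = 3.73e-11). The knock-in was lower than wild type under both conditions, by −0.35 ± 0.05 log2 with the agonist (adjusted p = 9.87e-07) and −0.25 ± 0.05 log2 without it (adjusted p = 8.93e-05). The endothelial sums given beside Oxct1, carried by Stab2 and Flt1, were also lower with the agonist and lower in the knock-in. Most of the 9 tested endothelial markers were not called between genotypes. Without treatment 3 were lower and 1 higher in the knock-in, where 18.6% and 18.4% of all tested genes were. With treatment 3 were lower and 0 higher, where 22% and 20.5% of all were. The part of endothelial cells in the Slc16a7 differences was not tested.

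**Figure D1:**
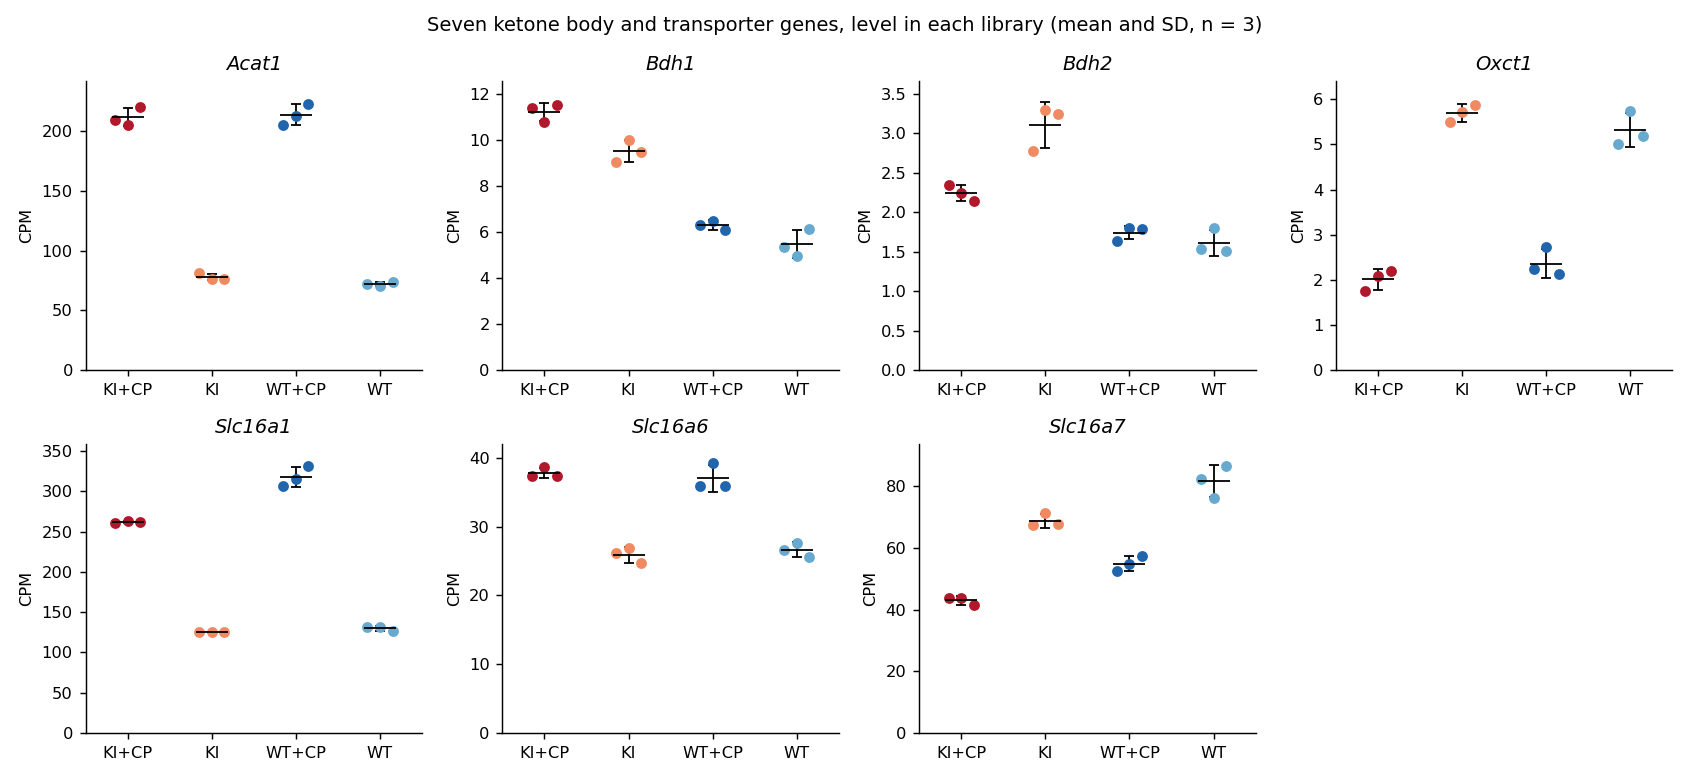
Level of each of the 7 genes in CPM (vertical axes from 0) in the 3 libraries of each group, where KI is knock-in, WT is wild type and CP is CP775146. Points are libraries and bars are mean and SD; Acat1, Slc16a1 and Slc16a6 lay higher and Oxct1 and Slc16a7 lower with the agonist in both genotypes, and Bdh1 lay higher in every knock-in library.

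**Figure D2:**
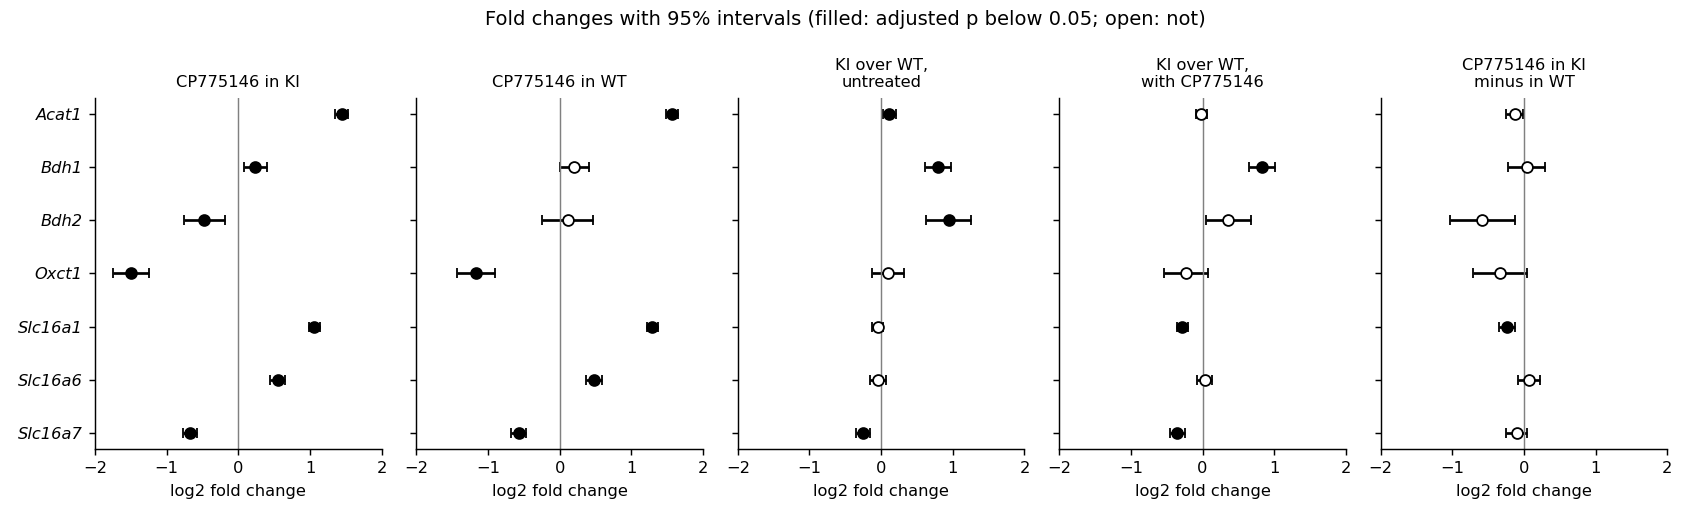
Log2 fold change (horizontal axes) of each of the 7 genes in 5 comparisons, with 95% intervals from the edgeR fit over all 12 libraries. Filled points had an adjusted p below 0.05, as all 7 genes did for the agonist in knock-in and only Slc16a1 did for the difference between agonist effects.

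Per kilobase, Slc16a1 was the most abundant of the 7 in every group, at 59.1 ± 0.256 RPKM in treated and 28.4 ± 0.0814 RPKM in untreated knock-in, and at 71.8 ± 2.9 RPKM in treated and 29.3 ± 0.689 RPKM in untreated wild type (SD, n = 3 each). Acat1 followed at 56.3 ± 2 RPKM in treated and 20.8 ± 0.749 RPKM in untreated knock-in. In wild type Acat1 was at 56.9 ± 2.34 RPKM with the agonist, in second place, and at 19.2 ± 0.358 RPKM without it, below Slc16a7 at 21.03 ± 1.37 RPKM. Bdh2 was lowest by mean in each group, from 0.38 to 0.73 RPKM. Its range overlapped that of Oxct1 in treated knock-in, and the ranges of Bdh1 and Oxct1 overlapped in untreated wild type, so these neighbours are not separated. All other neighbours in the order had separate ranges. RPKM divides by the full exonic length, of which other genes share 21.54% for Slc16a6, 14.03% for Bdh1 and 12.62% for Oxct1. Reads left out there would make the RPKM of these genes too low. The ratio and shares that follow carry the same limit.

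The RPKM of Acat1 over that of Oxct1 was 105 ± 11.7 in treated and 13.5 ± 0.952 in untreated knock-in, and 90.4 ± 13.3 in treated and 13.4 ± 1.11 in untreated wild type. Of the RPKM of the 3 transporters together, Slc16a1 held 75.9 ± 0.409% in treated and 55.2 ± 0.798% in untreated knock-in. Its share was 76.8 ± 0.483% in treated and 52.5 ± 1.59% in untreated wild type. Slc16a7 held 14.2 ± 0.383% and 34.4 ± 0.628% in treated and untreated knock-in, and 15.1 ± 0.0895% and 37.7 ± 2.08% in treated and untreated wild type. Treated and untreated libraries did not overlap in any of these quantities, and each comparison gave p = 0.1 in a two-sided exact permutation test, the smallest that 3 against 3 allows (0.133 after Benjamini-Hochberg adjustment over 32 such tests). The 3 transporters summed to 77.9 ± 0.533 RPKM in treated and 51.4 ± 0.77 RPKM in untreated knock-in, and to 93.5 ± 3.49 RPKM in treated and 55.8 ± 0.724 RPKM in untreated wild type.

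**Figure D3:**
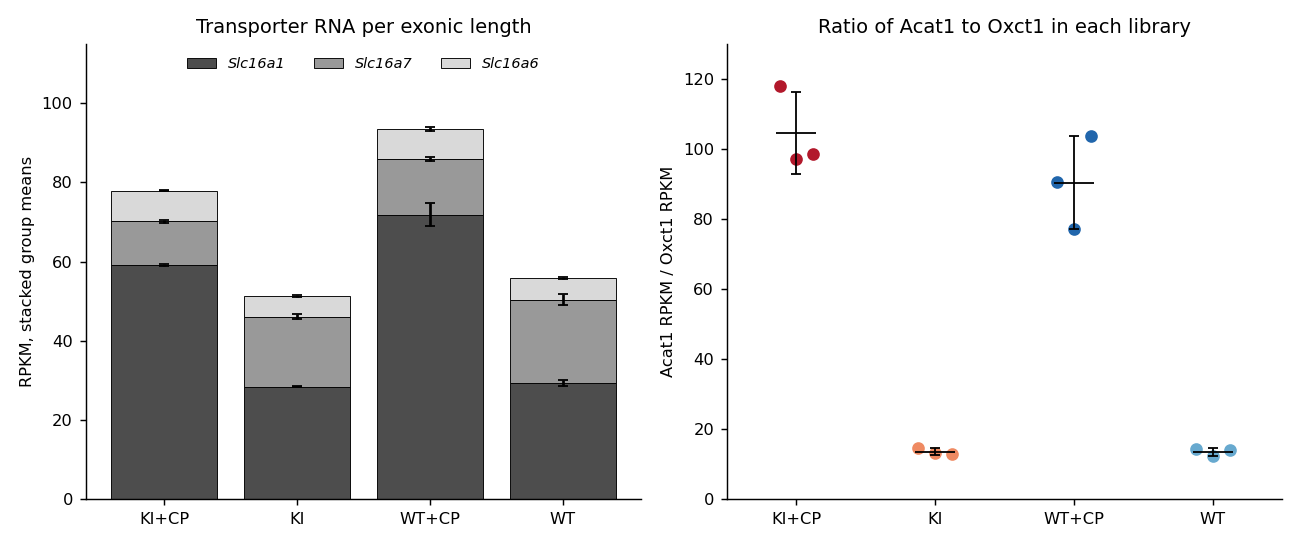
Left, mean RPKM of Slc16a1, Slc16a7 and Slc16a6 stacked by group, with the SD of each gene drawn at the top of its segment; right, RPKM of Acat1 over that of Oxct1 in each library, with mean and SD (n = 3). The transporter sum reached 77.9 RPKM in treated knock-in and 93.5 RPKM in treated wild type, and the ratio was 77.04 or more in treated and 14.6 or less in untreated libraries.

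Other enzymes of ketone body metabolism and the reactions next to it were a list of 9 genes, of which 7 were tested. With the agonist 6 rose in knock-in and none fell, and 5 rose and 1 fell in wild type, with medians of 0.76 and 0.96 log2. Over all tested genes 18.1% were higher and 19.1% lower in knock-in, and 22.7% and 22.3% in wild type. Acaa2, a thiolase of fatty acid oxidation, averaged 658 ± 18.6 CPM in treated and 189 ± 6.11 CPM in untreated knock-in, and 952 ± 55.8 CPM in treated and 236 ± 4.43 CPM in untreated wild type. It rose by 1.8 ± 0.04 log2 in knock-in and 2.01 ± 0.04 log2 in wild type. Hadh, a dehydrogenase of the same pathway, rose by 0.76 ± 0.04 log2 in knock-in and 1.01 ± 0.04 log2 in wild type. The rises of both genes were smaller in the knock-in by called tests, by −0.21 ± 0.06 log2 for Acaa2 (adjusted p = 0.0205) and −0.25 ± 0.06 log2 for Hadh (adjusted p = 0.0105). Hmgcs1, an enzyme of the cholesterol pathway, rose by 0.82 ± 0.04 log2 in knock-in and 0.96 ± 0.04 log2 in wild type. Acat2, a cytosolic thiolase gene, rose by 0.45 ± 0.04 log2 in knock-in and 0.59 ± 0.05 log2 in wild type. Of its 50-base stretches 39.1% also occur in other genes, Acat3 foremost, so its counts are uncertain.

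Other monocarboxylate transporters and their partner proteins were 16 genes, of which 10 were tested. With the agonist 6 rose and 3 fell in knock-in, where 37.2% of all tested genes were called, and 5 rose and 3 fell in wild type, where 45% were. Bsg encodes basigin, the membrane partner that MCT1 needs to reach the cell surface. It averaged 2013 ± 60.4 CPM in treated and 1301 ± 16.4 CPM in untreated knock-in, and 3331 ± 199 CPM in treated and 1829 ± 101 CPM in untreated wild type. Like Slc16a1, Bsg rose less in the knock-in (difference −0.23 ± 0.06 log2, adjusted p = 0.0137), and it was 1.65-fold lower there with treatment (adjusted p = 2.44e-14). Unlike Slc16a1, Bsg was also called lower in the knock-in without treatment (−0.49 ± 0.04 log2, adjusted p = 1.33e-10). Emb, which encodes the partner of MCT2, held 4 counts over all 12 libraries and was not tested. Slc16a13, an orphan of the family, averaged 4.46 ± 0.595 CPM in treated and 1.04 ± 0.143 CPM in untreated knock-in, and 3.87 ± 0.33 CPM in treated and 1.14 ± 0.136 CPM in untreated wild type. Slc16a3, which encodes the lactate exporter MCT4, rose by 0.58 ± 0.1 log2 in knock-in and 0.91 ± 0.09 log2 in wild type, and Slc16a12, a creatine carrier gene, fell by 0.53 ± 0.04 and 0.7 ± 0.04 log2.

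Lactate and pyruvate use the same carriers, and of 15 genes that handle them 13 were tested. With the agonist 8 rose in knock-in and 9 in wild type, and none fell, beside 18.1% and 22.7% of all tested genes that were higher. Pdk4, a kinase that shuts pyruvate dehydrogenase off, averaged 476 ± 6.01 CPM in treated and 21.6 ± 1.18 CPM in untreated knock-in, and 639 ± 27.7 CPM in treated and 21.3 ± 1.42 CPM in untreated wild type. Its rise was smaller in the knock-in, by −0.45 ± 0.07 log2 (edgeR adjusted p = 7.71e-05). Ldha, the lactate dehydrogenase subunit gene, rose by 0.38 ± 0.04 log2 in knock-in and 0.49 ± 0.04 log2 in wild type. Pdk1, another kinase of this family, rose by 0.74 ± 0.05 log2 in knock-in and 0.81 ± 0.05 log2 in wild type. Pdk3 rose in wild type by 1.24 ± 0.18 log2 (adjusted p = 1.89e-06) and differed by 0.36 ± 0.17 log2 in knock-in (adjusted p = 0.097), effects that differed between genotypes by −0.88 ± 0.25 log2 (adjusted p = 0.0268). Between genotypes 7 of the 13 were lower and 2 higher in the knock-in without treatment, where 18.6% of all tested genes were lower and 18.4% higher. With treatment 9 were lower and 2 higher, where 22% of all tested genes were lower and 20.5% higher.

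**Figure D4:**
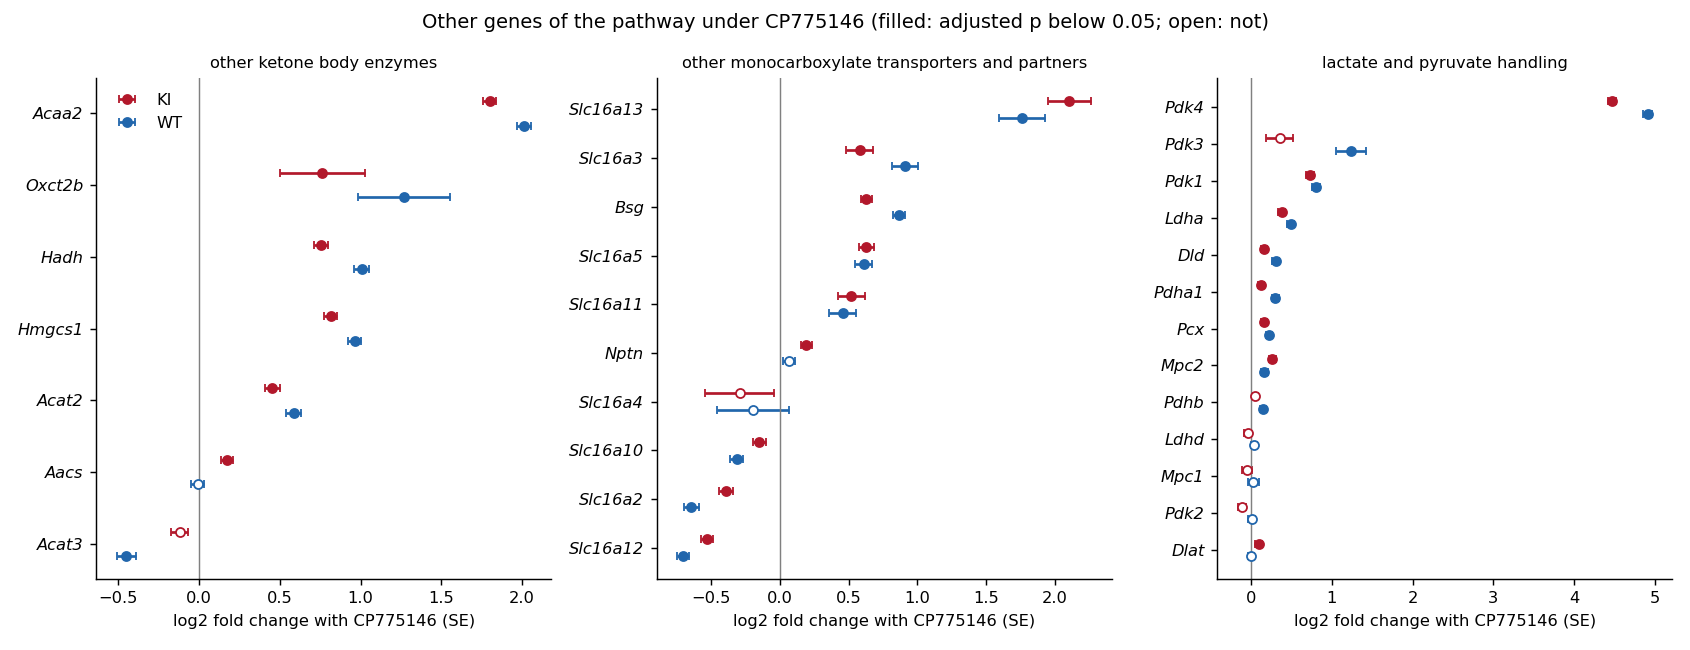
Log2 fold change with CP775146 (horizontal axes, with SE) for every tested gene of 3 lists in knock-in (KI) and wild type (WT), ordered by the wild-type value. Filled points had an adjusted p below 0.05, and Acaa2, Slc16a13 and Pdk4 had the highest values of their lists in both genotypes.

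Over the 12 libraries, log2 CPM of Acat1 correlated with that of Slc16a1 at Pearson's r = 0.98, with Slc16a6 at 0.97 and with Oxct1 at −0.97. Bdh1 correlated with Bdh2 at 0.74 and with Acat1 at 0.29. These values describe 4 groups of libraries and are not independent points. Among 10954 genes with at least 1 CPM on average, those most like Acat1 in pattern were Slc27a2, Abcd3 and Mttp, at r = 0.999, 0.998 and 0.998. Those most like Slc16a1 were Alpl, Pex11a and Suclg2, at 0.999, 0.998 and 0.998. For Oxct1 they were Slc2a2 (0.99), Dnajc5 (0.985) and Cbs (0.979), and for Slc16a7 Dgcr8 (0.992), Selenop (0.989) and Klhl24 (0.984). For Slc16a6 they were Srxn1 (0.99), Zfp40 (0.985) and Sdcbp2 (0.984). Bdh1 was most like Sltm (0.991), Mlec (0.986) and Ubd (0.985), and Bdh2 most like Pdp1 (0.962), Prrc1 (0.952) and Myo1c (0.95).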

How the data were processed

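RNA from 12 libraries of primary mouse hepatocytes was measured. The deposited values are raw counts of reads per gene, 1 file per library, which the authors obtained by running featureCounts 1.6.2 on exons of Ensembl release 83 (GRCm38) with alignments to mm10, with no strand, overlap or multi-mapping option, per the file headers. The exonic length of each gene is in the same deposited files. The submitters' processing notes name featureCounts 1.4.6-p4 instead, with Subread, FastQC 0.11.2, cutadapt 1.9 and edgeR 3.18.1. The agonist's concentration is printed in the labels with a symbol-font character, read as micro. Of 46983 IDs, 46488 matched a symbol (GENCODE M21).

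Genes passed filterByExpr at a minimum count of 10 and a minimum total of 15. All libraries entered 1 robust glmQLFit of edgeR 4.0.16 (R 4.3.3) on TMM library sizes, with 1 term per group. The 5 contrasts were tested with glmQLFTest, and SE is the fold change over the root of F. Intervals are 95%. The fit was tested on simulated data with 1 dispersion per gene shared by all groups. Unequal variation between genotypes was not simulated. Deviations from group means of same-numbered libraries correlated at 0.123, 0.103 and 0.117 between treated knock-in and treated wild type. Unlike-numbered libraries of these treated groups correlated at −0.0938 to −0.0144. Elsewhere unlike-numbered libraries reached 0.212 (treated wild-type replicate 2 with untreated wild-type replicate 1). Over all groups, 13 of 36 best matches were with the own number. The labels state no pairing, and these correlations are too low to show one. Replicates of a group differed by more than counting noise in every pair. The common variation beyond counting noise was 2.63% in treated and 2.59% in untreated knock-in. In wild type it was 5.33% with and 5.1% without the agonist. The fit nonetheless shared its dispersion over all groups. Results were recomputed with DESeq2 1.42.0, voom of limma 3.58.1, scaling by RLE or by total counts, other filters, only the groups compared, replicate blocks and each library left out. RPKM is TMM-scaled CPM per kilobase. Motifs were searched in RefSeq promoter windows.

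The 7 genes and all lists were chosen with earlier results of these data known. From each list up to 4 genes were named, those with the largest wild-type agonist effect and at least 1 CPM on average, and likeness was the 3 highest Pearson correlations. Some genes of the pathway are not reported here.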

Additional observations from a re-analysis of the deposited data

Results flagged for a closer look

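The rise of Slc16a1 with CP775146 was 2.08-fold in knock-in and 2.45-fold in wild type, and the test of the difference itself gave −0.23 ± 0.05 log2 (edgeR adjusted p = 0.00449). All 3 treated knock-in libraries, at 260.4 to 263 CPM, lay below all 3 treated wild-type libraries, at 306 to 332 CPM. Leaving out each library in turn gave −0.25 to −0.19 log2, with adjusted p from 0.00304 to 0.0234. Ppara, the gene of the receptor that the agonist binds, stood at 93.8 ± 3.57 CPM in treated knock-in and 127 ± 8.33 CPM in treated wild type (SD, n = 3 each). Untreated, it stood at 73.3 ± 2.32 CPM in knock-in and 87.6 ± 1.17 CPM in wild type (−0.26 ± 0.05 log2, edgeR adjusted p = 3.84e-05). Its agonist effects differed by −0.18 ± 0.06 log2, which was not called (adjusted p = 0.09). Rxra, the gene of its partner, was 0.2 ± 0.04 log2 higher in treated knock-in than in treated wild type (adjusted p = 5.91e-05). The part of either gene in the Slc16a1 difference was not tested. With 3 libraries in a group, no single library was tested as an outlier.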

How the results depend on the processing

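Of 730 values of single genes recomputed under other settings, 710 kept their direction and side of the threshold, 10 lost the call, 3 gained it and 7 changed sign. With total-count scaling the set had 6 calls between treated genotypes in place of 3, and Acat1 there changed sign to 0.12 log2, as did Slc16a1 (0.0548 log2) and Slc16a6 (0.0617 log2) between untreated genotypes. That scaling moved the median of all genes to −0.1 log2 for the agonist in wild type and turned 2884 higher and 2918 lower calls between untreated genotypes into 5024 and 1722, and 3218 and 3447 between treated genotypes into 5950 and 1867. For the agonist it gave 2066 higher and 4352 lower calls in knock-in and 2358 and 5338 in wild type, in place of 2832 and 2989 and of 3553 and 3496, and for the difference between agonist effects 663 and 519 in place of 435 and 678. Leaving out 1 library gave −0.0697 to 0.000627 log2 for Slc16a6 between untreated genotypes (highest without knock-in replicate 3), −0.0426 to 0.0223 log2 for Acat1 between treated genotypes (0.00743 without treated knock-in replicate 2, highest without treated wild-type replicate 3) and −0.0512 to 0.0985 log2 for the Bdh1 difference in agonist effect (lowest without untreated wild-type replicate 3), none of them called. Genes called for the difference in agonist effect ranged from 732 (without treated knock-in replicate 1) to 1468 when 1 library was left out. Replicate numbers were not shown to pair the libraries, and only between the treated groups did all 3 same-numbered pairs correlate above 0.1. With a fit of the treated groups alone and the replicate number as a block, chosen after seeing the data, the set kept its 3 calls and 6948 genes were called in place of 6665. With the block over all groups, 1130 genes were called for the difference in agonist effect, and a replicate block within genotype ended the Acat1 call between untreated genotypes (0.11 log2, adjusted p = 0.0558) and changed no other call among the 7 genes. The cause of these changes was not tested. Depth limits Bdh2 and Oxct1 most, with 42 to 114 and 55 to 207 counts per library, and Bdh2 had no value under the filter of 5 CPM in 3 libraries.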

Other observations

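Genes that control ketogenesis were a list of 14, all tested, of which 6 rose and 5 fell with CP775146 in knock-in and 5 rose and 4 fell in wild type, beside 37.2% and 45% of all tested genes that were called. Creb3l3, a liver transcription factor gene of the fasting response, averaged 478 ± 8.65 CPM in treated and 76.5 ± 0.949 CPM in untreated knock-in, and 445 ± 28.4 CPM in treated and 39.2 ± 2.93 CPM in untreated wild type (SD, n = 3 each). Its rise was smaller in the knock-in by −0.86 ± 0.07 log2 (edgeR adjusted p = 1.42e-09), and its level without treatment was 1.95-fold higher there. Fgf21, which encodes a fasting hormone of the liver, averaged 14.6 ± 1.77 CPM in treated and 2.93 ± 0.395 CPM in untreated knock-in, and 7.5 ± 0.243 CPM in treated and 1.47 ± 0.313 CPM in untreated wild type. Its agonist effects differed by −0.03 ± 0.19 log2 (adjusted p = 0.967). Ppargc1a, a coactivator gene of oxidative metabolism, fell by 1.16 ± 0.09 log2 in knock-in and 1.12 ± 0.1 log2 in wild type. Insig2, whose product holds back the lipid synthesis factor SREBP, rose by 0.65 ± 0.04 log2 in knock-in and 0.93 ± 0.04 log2 in wild type. These rises differed by −0.27 ± 0.05 log2 (edgeR adjusted p = 0.000739).

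The cytosolic thiolase gene Acat3, named after its values were seen, was 0.83 log2 higher in the knock-in without treatment (adjusted p = 1.38e-13) and 1.16 log2 higher with it (adjusted p = 1.44e-16). Acat2, another cytosolic thiolase gene, was 0.2 log2 higher without treatment (adjusted p = 0.000856) and differed by 0.07 log2 with it (adjusted p = 0.192). Of the 50-base stretches in their transcripts, 52.5% for Acat3 and 39.1% for Acat2 also occur in transcripts of other genes, foremost of each other, so the split of reads between them is uncertain.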
